A study of Mus musculus with 4 samples.

Results

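Matrix genes of muscle that code for no collagen were followed in chimeric eCLIP data from mouse plantaris muscle: Thbs1, Sparc, Fn1, Postn, Tnc, Lox, Bgn, Dcn and Fbn1. The 9 genes were taken as a named list, out of 7810 genes that held at least 1 chimeric line in either library. Their members in the data were all lines that overlapped the gene's GRCm38/mm10 RefSeq span on the gene's strand, whatever the miRNA. A line is 1 miRNA joined to 1 peak, with an estimated count of chimeric reads. The 9 genes held 985 of 93468 lines and 4449.5 of 232407.8 reads (1.92%) in the MOV control library, and 909 of 100897 lines and 3730.9 of 259207.1 reads (1.44%) in the MOV mimic library.

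In chimeric eCLIP, RNA bound to the Argonaute protein Ago2 is cross-linked and pulled down with an antibody, and each miRNA is joined to its target RNA, so that 1 read names both partners. The study's methods also describe an amplification step with a primer for miR-1. The 2 libraries each held 560 miRNA names, and miR-1a-3p with miR-206-3p made up 18.4% and 19.4% of reads. How far that step bears on shares of miR-1 against other miRNAs was not tested. The mice were adult C57BL/6J males of 5 months whose plantaris muscle underwent mechanical overload (MOV) for 10 days after bilateral removal of part of the synergist muscles. Lentivirus was injected at surgery, with a scramble control in the left plantaris (MOV control) or an miR-1a-3p shMIMIC in the right plantaris (MOV mimic). Both constructs carried a CMV promoter and a TurboGFP reporter, and both groups had the overload, so neither is an uninjured or uninjected muscle. There was 1 library per group, and whether both muscles came from the same mouse was not given in the sources used here. The 2 input libraries of the series were not analysed here. With 1 library per group no test was possible, so each difference below is one between 2 libraries with no replicate check, and every interval is a 95% interval that covers counting error only.

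The extracellular matrix of muscle surrounds each fibre, carries force to the tendon and stores growth factors. It is made mainly by fibroblasts, and it is rebuilt when a muscle is overloaded. Matricellular proteins are secreted into the matrix and steer how cells attach and signal rather than bear load themselves. A miRNA guides Argonaute to an RNA mainly by pairing of its seed, and miRNAs with the same seed (bases 2 to 8) are treated here as a family. miR-1 and miR-206 share a seed and are both characteristic of skeletal muscle, whereas let-7, miR-15/16, miR-29, miR-125 and miR-199 are found in many cell types. miR-29 is known for its pairing with collagen and other matrix transcripts.

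The miRNAs whose families led at these genes are printed below from RefSeq (GRCm38.p6) with the seed in capitals, since the families differ in these letters. Of 191 miRNA names at the 9 genes, 161 had a sequence in that table. Sequences for miR-1a-3p and miR-133a-3p were not used here.
miR-206-3p: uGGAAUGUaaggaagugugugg
let-7c-5p: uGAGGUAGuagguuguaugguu
miR-16-5p: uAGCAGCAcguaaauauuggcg
miR-29a-3p: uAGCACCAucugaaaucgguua
miR-214-3p: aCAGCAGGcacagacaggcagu
miR-125b-5p: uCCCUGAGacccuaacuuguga
miR-199a-3p: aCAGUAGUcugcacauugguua
miR-27a-3p: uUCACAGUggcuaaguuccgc
miR-30e-5p: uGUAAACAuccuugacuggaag
miR-133b-3p: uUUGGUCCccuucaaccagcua
All 10 seeds differ, and those of miR-29a-3p and miR-16-5p begin with the same letters, AGCA.

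The longest protein-coding transcript of each gene in GENCODE vM1 was searched on its own strand for the complement of each seed. Peaks and transcripts are on different builds (GRCm38 for the peaks, NCBIM37 for the transcripts), so no coordinate was carried from one to the other. The distance of a match from the gene's 3′ end on NCBIM37 was set beside the distance of the peak from the gene's 3′ end on GRCm38. Measured this way, 7 of the 9 regions with the most reads had a match of their leading family at a distance inside the region's own. The same held for 13 of 39 regions with at least 20 reads, but for 3 when measured from the gene's start. Of those 39 regions, 34 were led by a family among the 10 searched, and 24 had a match of that family anywhere in the transcript. Gene spans differed in length between the annotations for 8 of the 9 genes (Thbs1 was equal, at 15258 nt), so that a match lay beneath a peak was not established. The matches at those leading regions follow, outside Lox, with the match in capitals, together with 2 sites of Thbs1.
Thbs1, miR-1/miR-206: ttctatcaacctaactaaaACATTCCttt
Thbs1, let-7: ggaacttctatacaaatatTACCTCatt
Fn1, miR-1/miR-206: agcacggccacttccgtgaACATTCCtga
Postn, miR-15/16: ctcctgcccttatatgctcTGCTGCTgct
Tnc, let-7: ctagtactgatttcattgtCTACCTCtct
Bgn, miR-15/16: cccctgtggctactcacctTGCTGCTggc
Dcn, miR-125: cttggacaacaacaaactcCTCAGGGtgc
Fbn1, let-7: aagacagatatgacaaagaCTACCTCagt
On NCBIM37 the Thbs1 sites lie at chr2:117951644-117951672 (+) and chr2:117952256-117952283 (+), both in the 3′ UTR in exon 22 of 22. The other printed matches lie in coding sequence. They are at chr1:71675074-71675102 (−) in exon 16 of 46 of Fn1, chr3:54165074-54165102 (+) in exon 1 of 22 of Postn, and chr4:63654113-63654141 (−) in exon 13 of 26 of Tnc. The Bgn match is at chrX:70736135-70736163 (+) in exon 2 of 8, the Dcn match at chr10:96976311-96976339 (+) in exon 7 of 8, and the Fbn1 match at chr2:125127373-125127401 (−) in exon 65 of 65. Such letters are common: among windows of protein-coding transcripts of the same length as the gene's transcript, the motif ACATTCC was present in 32.5% for Thbs1 and 42.3% for Fn1, TGCTGCT in 50.1% for Postn and 41.6% for Bgn, CTACCTC in 41.3% for Tnc and 53.4% for Fbn1, and CTCAGGG in 17.95% for Dcn.

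Chimeric reads were found at all 9 genes in both libraries, and no line of the 9 genes lay on the opposite strand or in the span of a further gene. Fn1, which codes for the adhesive glycoprotein fibronectin, had the most reads, with 1631.0 in the MOV control library and 1390.8 in the MOV mimic library. By reads summed over both libraries it ranked 11 among the 2727 genes with at least 20 reads, and Thbs1 ranked 17. Lox, which codes for lysyl oxidase, the enzyme that cross-links collagen and elastin, had the fewest, with 49.7 and 48.9 reads.

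**Figure D1:**
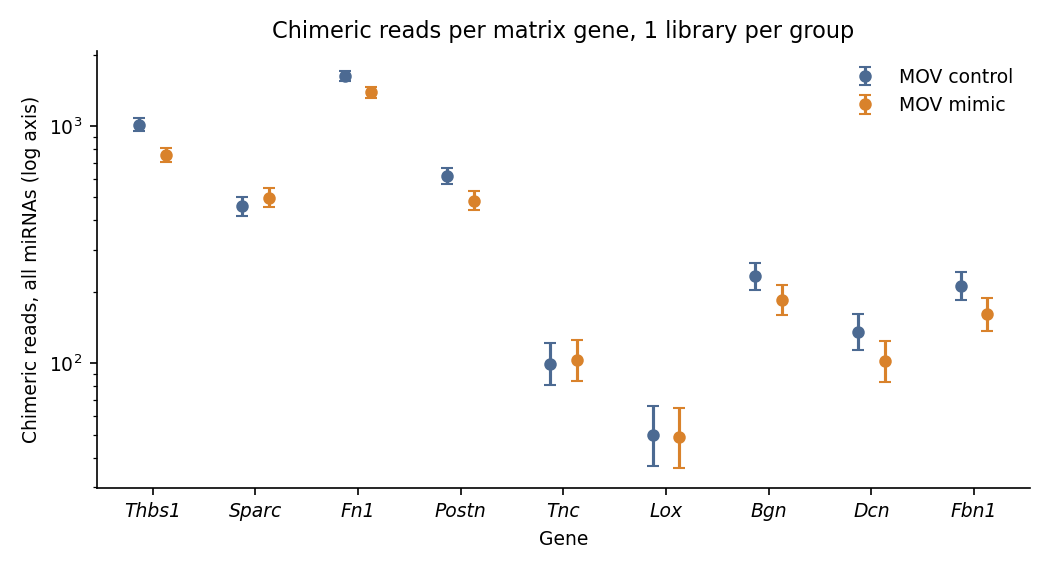
Chimeric reads of all miRNAs at each of the 9 genes (points, log axis) in the MOV control and MOV mimic libraries, with bars for exact 95% Poisson intervals. Reads ran from 49.7 at Lox to 1631.0 at Fn1 in the control library, and the mimic point was the lower one at all genes but Sparc and Tnc.

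Divided by transcript length, the genes fell into 3 levels in both libraries. Sparc (200.1 reads per kb, interval 182.1 to 219.1), Fn1 (196.2), Postn (192.5) and Thbs1 (173.2) were highest in the MOV control library. Bgn (97.9) and Dcn (77.1) were intermediate, and Fbn1 (17.7), Tnc (14) and Lox (11.1) were low. Within each level, neighbours in this order had overlapping intervals, and the levels themselves did not overlap. In the MOV mimic library the same genes formed the levels, but Sparc (217.2 reads per kb, interval 198.7 to 237.3) stood above Fn1 (167.3, interval 158.7 to 176.4) without overlap.

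All 9 genes held fewer reads in the MOV mimic library once the counts were divided by the ratio of library totals (1.115). Such scaled ratios below 1 were found at 55.4% of the 2727 genes. The reads of the 9 genes together had a scaled ratio of 0.752 (0.720 to 0.785). The median over the 9 genes was 0.712, against 0.9501 over all genes tested. None of the 9 reached a 1.5-fold difference in either direction, although Thbs1 (0.669) lay just inside that limit. Counting only lines of at least 1 read, Thbs1 (0.657) and Dcn (0.610) passed it, and with lines of at least 3 reads Thbs1 (0.647), Dcn (0.485) and Lox (0.319) did. Of all genes tested, 13.3% were at least 1.5-fold higher and 17.7% at least 1.5-fold lower in the MOV mimic library, so the count at these genes did not exceed that background. Without the scaling, Sparc and Tnc were above 1, at 1.08 and 1.04.

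The lowest scaled ratios were those of Thbs1 (0.669, interval 0.607 to 0.735), Dcn (0.678, 0.515 to 0.876) and Fbn1 (0.683, 0.551 to 0.840). Postn (0.705), Bgn (0.712) and Fn1 (0.765, 0.711 to 0.822) followed, each with an interval below 1. The intervals of Lox (0.580 to 1.33), Tnc (0.694 to 1.23) and Sparc (0.857 to 1.109) held 1. Leaving out 1 gene at a time, the pooled ratio ran from 0.726 without Sparc to 0.776 without Thbs1.

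**Figure D2:**
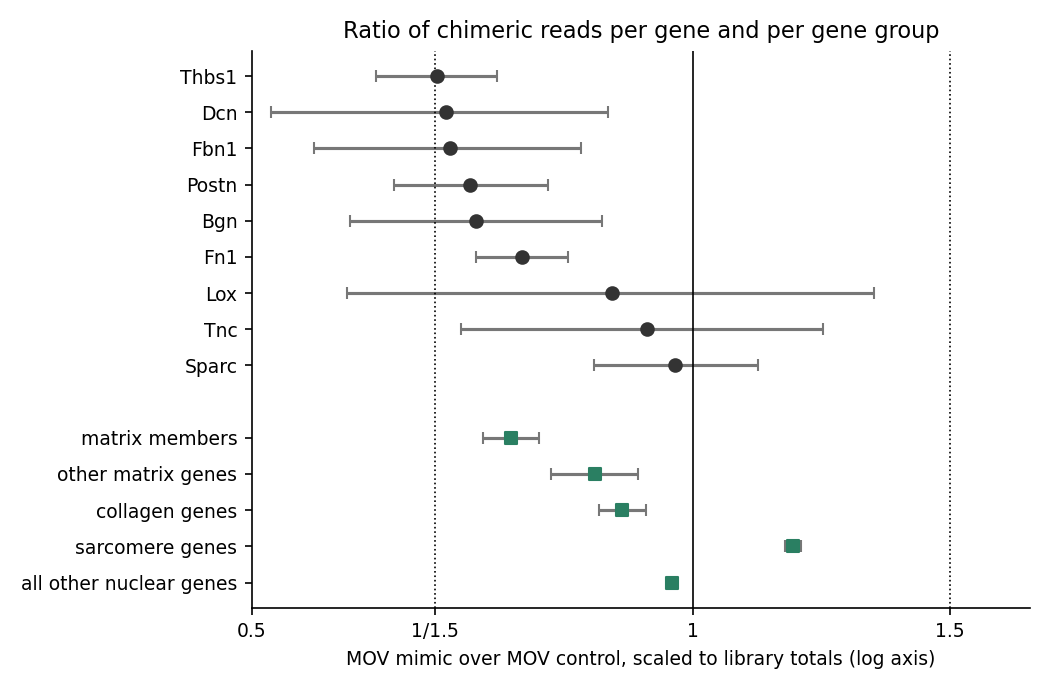
Ratio of MOV mimic to MOV control reads after scaling to library totals (log axis), for each gene (circles) and for gene groups (squares), with 95% counting intervals and dotted lines at 1.5-fold. The 9 genes lay between 0.669 and 0.973, and their pooled value of 0.752 was below that of the other matrix genes (0.858), collagen genes (0.896), all other nuclear genes (0.968) and sarcomere genes (1.17).

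Other matrix genes were also lower, but less so. A list of further matrix genes held 1693.5 and 1619.7 reads, a scaled ratio of 0.858 (0.800 to 0.918). Of its 35 genes with at least 20 reads, 2 were at least 1.5-fold higher and 6 at least 1.5-fold lower, and their median was 0.826. The 5 with the most reads were Thbs4 (182.5 and 148.8 reads, scaled ratio 0.731), a thrombospondin of tendon and muscle, and the small proteoglycans Aspn (0.820) and Fmod (0.716), then Vcan (0.870) and Hspg2 (1.07), which code for versican and perlecan. Collagen genes had a scaled ratio of 0.896 (0.863 to 0.930). Counting intervals of the 9 genes, of the other matrix genes and of sarcomere genes (1.17, 1.16 to 1.19) did not overlap.

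These are libraries of whole muscle, and chimeric reads count RNA joined to a miRNA on Ago2, not RNA level. Cell number, RNA per cell and Ago2 binding per RNA therefore cannot be told apart here. RNA level in the input libraries was not analysed either. Reads at marker genes of muscle fibres were present at 10 of 10 genes with a scaled ratio of 1.17, and those of fibroblasts at 8 of 8 genes with 0.880 (0.843 to 0.918). Tendon markers had 129.0 and 98.9 reads and a scaled ratio of 0.688 (0.524 to 0.901) at 3 of 4 genes, with Mkx at 0. Most of these reads were at Fmod (93.9 and 75.0), which is also among the other matrix genes above. Of the 4 genes listed for muscle stem cells, 2 had reads, Myod1 and Des, with Pax7 and Myf5 at 0. Whether those reads came from stem cells was not tested. Macrophage markers had 46.0 and 63.9 reads at 3 of 6 genes, with Cd68, Adgre1 and Cd163 at 0. Endothelial markers had 23.8 and 54.8 reads, a scaled ratio of 2.06 (1.25 to 3.47), with Vwf at 0 in both libraries and Pecam1 at 0 in the MOV control library, and smooth muscle and pericyte markers had 203.6 and 210.6 reads at 5 of 5 genes. The fibroblast list shared Col1a1, Col1a2 and Col3a1 with the collagen genes, and Dpt and Mfap5 with the other matrix genes. All muscle fibre markers but Atp2a1 were also among the sarcomere genes. These marker ratios are therefore not separate from those of the gene groups. The part of the marker shifts in the lower reads of the 9 genes was not tested.

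The seed family shares at the 9 genes differed from those at sarcomere genes, for miR-1/miR-206 mainly through Fn1. miR-1/miR-206 held 37.3% of reads (35.9 to 38.7) in the MOV control library and 40.4% (38.8 to 42.0) in the MOV mimic library, and let-7 held 21.6% (20.4 to 22.8) and 19.2% (17.96 to 20.5). The miR-1/miR-206 share rested on Fn1: without that gene it was 13.3% and 16.2%, and the let-7 share was 33.7% and 30.0%. The let-7 share in turn rested on Thbs1, and was 9.91% and 10.6% without it. miR-133, a muscle miRNA that held 51.0% of reads at sarcomere genes and 15.98% at collagen genes in the MOV control library, held 3.09% at the 9 genes. Counted by lines, these miR-133 shares were 9.74%, 5.34% and 4.47%. miR-29 held 3.90% of reads at the 9 genes and 14.02% at collagen genes. The other matrix genes were closer, with 4.34% miR-133, 4.63% miR-29 and 21.4% let-7, but they had 9.72% miR-1/miR-206. All other nuclear genes had 16.4% miR-1/miR-206, above the share of the 9 genes without Fn1. Sarcomere genes had 13.6% (control) and 13.97% (mimic), beside 13.3% and 16.2% for the 9 genes without Fn1.

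The leading family differed among the genes. By reads summed over both libraries it was miR-1/miR-206 at Fn1, let-7 at Thbs1, Postn, Tnc and Fbn1, miR-15/16 at Bgn, miR-125 at Dcn and miR-30 at Lox. At Sparc, miR-214-3p (127.7 reads) and miR-29 (124.3 reads) led together in the MOV control library, and miR-29 (137.0) came before miR-214-3p (123.0) in the MOV mimic library. These intervals overlapped, so their order was not resolved. In the MOV control library the intervals of the leading and the next family overlapped at 4 further genes. These were Dcn (miR-125 with 50.05 reads and let-7 with 30.5) and Bgn (miR-15/16 with 45.5 and miR-214-3p with 30.2). The others were Tnc (let-7 with 32.5 and miR-27 with 15.2) and Lox (miR-30 with 16.9 and miR-29 with 7.23). In the MOV mimic library the intervals of the leading and the next family also overlapped at Dcn (miR-125 with 31.5 reads and let-7 with 30.3), Lox (miR-30 with 13.4 and miR-27 with 12.3), Postn (let-7 with 104.4 and miR-15/16 with 95.4) and Bgn (miR-15/16 with 39.9 and miR-214-3p with 33.7).

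**Figure D3:**
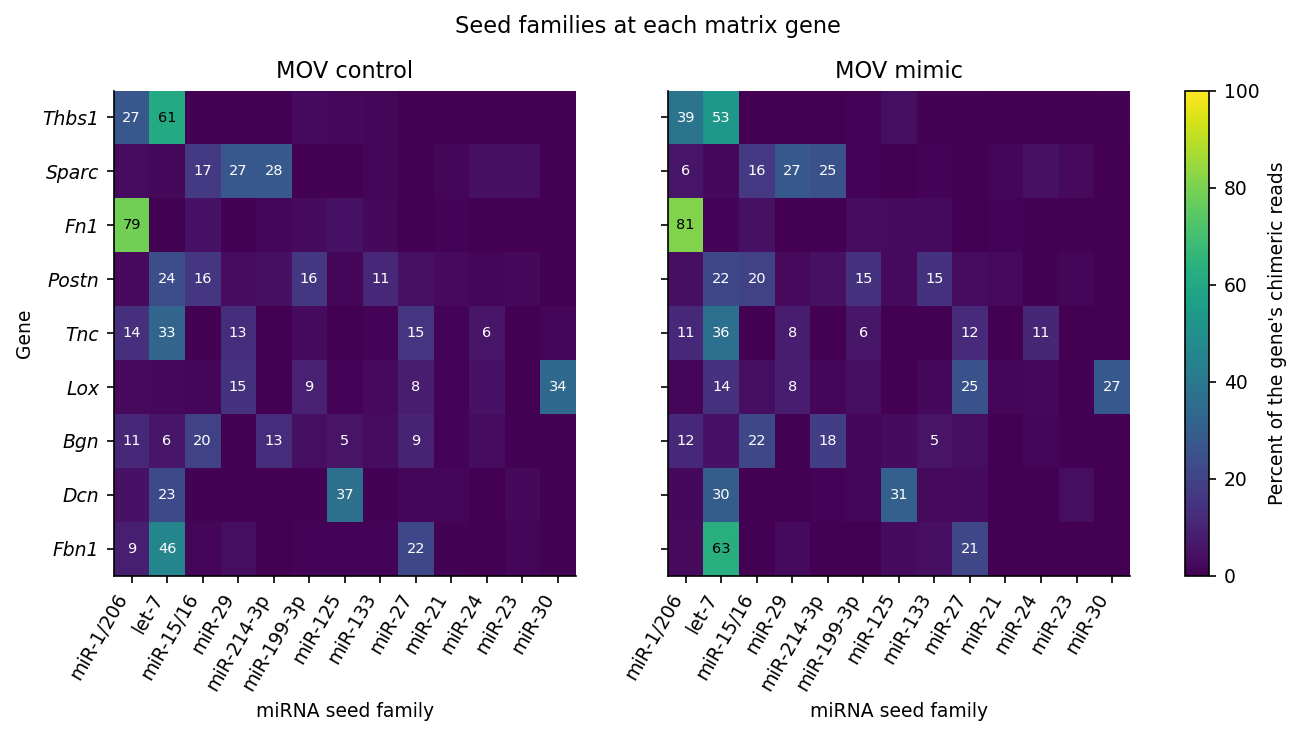
Percent of each gene's chimeric reads held by 13 seed families in the MOV control (left) and MOV mimic (right) libraries, with values of at least 5% written in the cells. miR-1/miR-206 filled Fn1 (78.8% in the control library), let-7 led at Thbs1 (61.3%) and Fbn1 (45.7%), and Sparc and Postn were divided among several families.

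Reads were concentrated in few places. Peaks of both libraries joined into 101 regions at the 9 genes, of which 58 were present in both libraries, 23 in the MOV control library alone and 20 in the MOV mimic library alone. The share in both was 57.4%, against 34.0% of 31035 regions over all nuclear peaks. Of the 39 regions with at least 20 reads, 38 were present in both (97.4%, against 97.6% of 2817 such regions), and 29 had a scaled ratio below 1 (74.4%, against 52.9%). The exception was a region of Fn1 at chr1:71626067-71626118 (−), led by miR-214-3p, with 24.4 reads in the MOV control library and no listed peak in the MOV mimic library. A peak missing from a list was counted as 0 reads, and reads there outside a called peak are not known. Counted per library, 63 of 86 control sites (73.3%, 62.6 to 82.2) overlapped a mimic site, and 65 of 85 mimic sites (76.5%, 66.0 to 85.0) overlapped a control site. Over all nuclear sites these shares were 53.4% and 50.5%.

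**Figure D4:**
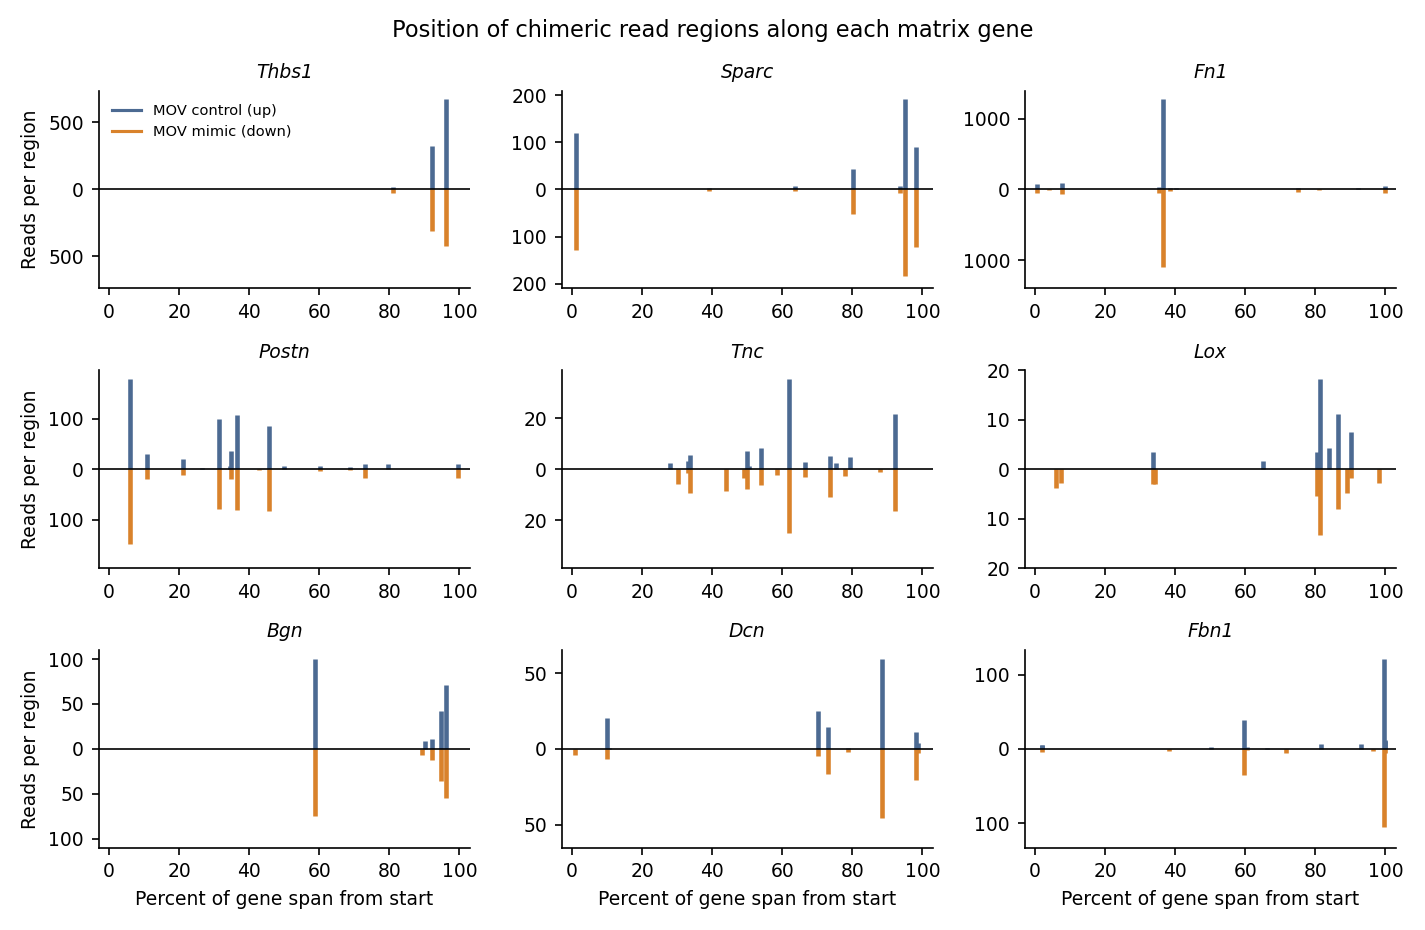
Reads per region along each gene, with position as percent of the gene's span from its start, for the MOV control library (upward) and the MOV mimic library (downward). Each gene has its own vertical scale. The tallest lines stand at the same positions in both libraries, as at the Fn1 region that held 77.8% and 79.2% of that gene's reads.

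Fn1 carried the most concentrated signal. Its leading region, chr1:71628442-71628544 (−), lay within the body of the gene and held 1269.0 reads in the MOV control library and 1101.0 in the MOV mimic library, and miR-1/miR-206 made up 98.2% of them. Almost all of this was miR-206-3p, with 1125.5 reads in the MOV control library and 962.3 in the MOV mimic library, while miR-1a-3p had 119.7 and 120.2. The miR-206-3p line was the largest of 4054 such lines outside the mitochondrial genome in the MOV control library and of 3994 in the MOV mimic library. The next line had 216.1 and 230.0 reads. This line alone held 9.35% and 8.56% of all miR-206-3p reads outside the mitochondrial genome.

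The region extended from 42969 to 43071 nt from the gene's 3′ end, and the printed ACATTCC match of Fn1 lay 42989 nt from it. Measured from the start, the region began at 24736 nt and the match lay at 24691 nt. A further Fn1 region, chr1:71629315-71629426 (−), was also led by miR-1/miR-206, with 29.3 and 31.7 reads of miR-206-3p. Scaled ratios at the leading region were 0.767 (0.702 to 0.836) for miR-206-3p and 0.900 (0.690 to 1.17) for miR-1a-3p, and these intervals overlapped.

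miR-206-3p and miR-1a-3p share a seed, but their proportion differed from gene to gene. At Fn1 miR-206-3p made up 90.2% (88.5 to 91.8) of their reads in the MOV control library and 88.4% (86.3 to 90.1) in the MOV mimic library. The median over genes with at least 20 reads of both miRNAs together was 31.2% over 201 genes and 26.2% over 232 genes. At Fn1 the share was exceeded at 6 and 7 of those genes. Thbs1 lay near or below the median, at 27.4% (22.3 to 33.1) and 16.8% (12.7 to 21.6). Bgn had 72.4% (52.2 to 88.4) and 53.9% (34.0 to 78.2). Over each whole library the share was 35.8% and 28.7%.

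**Figure D5:**
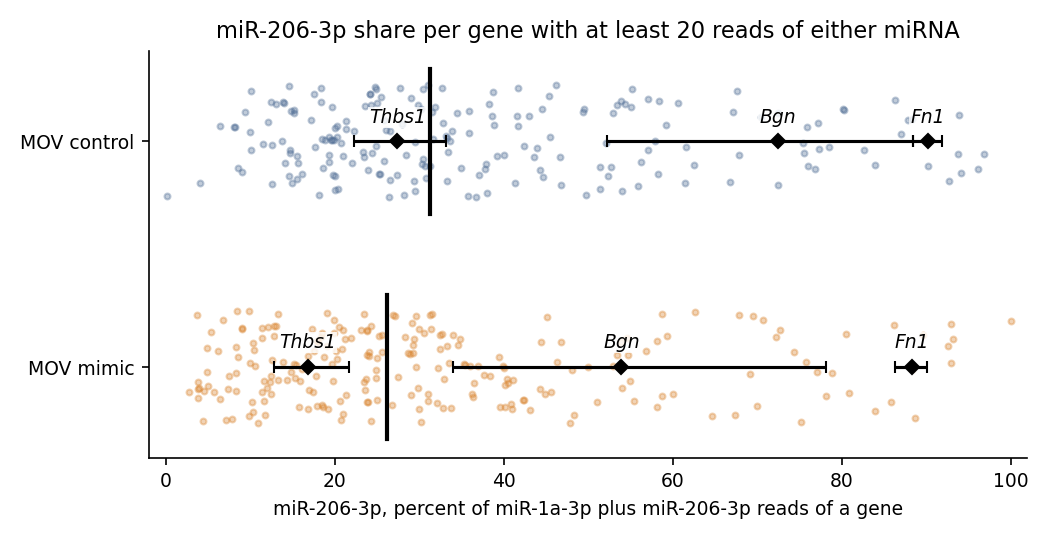
Share of miR-206-3p in the miR-1a-3p plus miR-206-3p reads of each gene with at least 20 such reads (dots, spread vertically at random), with the median over genes as a vertical bar and Fn1, Thbs1 and Bgn as diamonds with Clopper-Pearson 95% intervals. Fn1 stood at 90.2% in the MOV control library and 88.4% in the MOV mimic library, far above the medians of 31.2% and 26.2%.

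Fn1 also had weaker regions of other families. A region close to the start of the gene (chr1:71652907-71653002) was led by miR-125 and had 73.5 and 50.2 reads. Another, chr1:71648064-71648146, was led by miR-15/16, with 84.2 and 62.8 reads. Near the 3′ end of the span, chr1:71585540-71585607 was led by miR-199-3p, with 54.8 and 55.3 reads. The miR-125 reads of the whole gene were 78.6 and 38.7, a scaled ratio of 0.441 (0.294 to 0.658), and those of miR-214-3p were 29.6 and 2.80 (0.085, interval 0.018 to 0.288). Part of both differences came from regions with a peak in the MOV control library alone. Such regions held 16.5 of the miR-125 and 20.97 of the miR-214-3p control reads. At the miR-125 region close to the start, that family's ratio was 0.6085 (0.387 to 0.948).

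Thbs1 codes for thrombospondin-1, a matricellular glycoprotein that can activate latent TGF-β. It had 3 regions, all toward the 3′ end and all present in both libraries. The leading one, chr2:118126476-118126624 (+), held 671.3 reads in the MOV control library and 420.5 in the MOV mimic library, of which 92.3% were let-7. It was 1 peak in the MOV control library and 3 abutting peaks in the MOV mimic library, joined here. The leading let-7 members were let-7c-5p (163.3 and 104.5 reads), let-7f-5p (155.3 and 114.0) and let-7a-5p (138.5 and 73.9), each lower in the MOV mimic library. Over the gene, let-7 had 620.6 and 402.2 reads, a scaled ratio of 0.581 (0.511 to 0.659).

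No match of the let-7 motif CTACCTC was present in the Thbs1 transcript, although 36.5% of windows of that length held one. The shorter motif TACCTC, the complement of bases 2 to 7, occurred once, from 589 to 594 nt from the 3′ end, and the let-7 region extended from 509 to 657 nt from it. That shorter motif was present in 70.6% of windows. The other short let-7 motif searched, CTACCT, is the complement of bases 3 to 8. It had 2 matches in the transcript, both outside the let-7 region, and was present in 75.8% of windows. The complement of the miR-199-3p seed, ACTACTG, lay from 514 to 520 nt from the 3′ end. In the let-7 region miR-199-3p had 28.5 and 3.93 reads (scaled ratio 0.1235, interval 0.032 to 0.352). Over the gene it had 28.5 and 7.09 reads (0.223, interval 0.080 to 0.505). The name miR-199b-3p held all of the 28.5 reads in the MOV control library and none in the MOV mimic library. The mimic library instead used the name miR-199a-3p, which has the same mature sequence, and the names were summed as miR-199-3p.

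The miR-1/miR-206 region of Thbs1, chr2:118125876-118126001 (+), differed less between the libraries. It held 320.7 and 311.2 reads, a scaled ratio of 0.870 (0.741 to 1.02), of which 88.5% were miR-1/miR-206. Within it miR-1a-3p had 198.0 and 238.3 reads (scaled ratio 1.08, interval 0.889 to 1.31), while miR-206-3p had 75.8 and 46.9 (0.555, 0.377 to 0.808), and these intervals did not overlap. The region extended from 1132 to 1257 nt from the 3′ end, and the only ACATTCC match of the transcript lay from 1200 to 1206 nt from it. The remaining region, chr2:118124197-118124250 (+), was led by miR-125 and had 20.7 and 23.5 reads.

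Sparc codes for osteonectin, a matricellular protein that binds collagen, and its scaled ratio was the closest to 1 among the 9 genes. It had 460.3 and 499.6 reads, a scaled ratio of 0.973. All of its 7 regions were present in both libraries. The leading region, chr11:55395373-55395600 (−), held 190.6 and 183.8 reads, of which 58.9% were miR-29. There miR-29a-3p had 66.4 and 64.5 reads, miR-29b-3p 29.2 and 25.3, and miR-29c-3p 14.2 and 21.0. No miR-29 match (TGGTGCT) was present in the Sparc transcript, against 24.5% of windows of its length. Shorter motifs, as searched for let-7 at Thbs1, were not searched for miR-29 at Sparc.

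The next Sparc regions were led by other families. Close to the start of the gene, chr11:55419780-55419867 (−) held 119.2 and 128.4 reads, 71.3% of them miR-214-3p. Near the 3′ end, chr11:55394536-55394704 (−) held 89.6 and 121.3 reads and was led by miR-15/16. The miR-1/miR-206 reads of Sparc, spread over several regions, were 16 and 28.2. With a scaled ratio of 1.58 (0.820 to 3.11), this was the only pair of gene and family that was at least 1.5-fold higher, and its interval held 1.

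Postn codes for periostin, a matricellular protein of collagen-rich tissue, and its reads were divided among several families. It had 616.2 and 484.5 reads in 17 regions, of which 12 were present in both libraries. The leading region, chr3:54361128-54361261 (+), held 178.6 and 149.4 reads, 55.7% of them miR-15/16. In it miR-16-5p had 40.3 and 58.2 reads, whereas miR-15a-5p had 23.2 and 14.9. Further regions were led by let-7 (chr3:54370822-54370916, 107.8 and 80.6 reads), miR-199-3p (chr3:54369148-54369253, 99.5 and 79.9 reads) and miR-133 (chr3:54373702-54373804, 84.8 and 82.2 reads). Over the gene, let-7 (144.9 and 104.4) and miR-199-3p (100.1 and 71.1) had scaled ratios of 0.646 and 0.637, and miR-1/miR-206 (16.7 and 19.04) had 1.02.

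Tnc codes for tenascin-C, a matricellular protein that is raised in overloaded and injured tissue. It had 99.5 and 103.3 reads in 18 regions, of which 8 were present in both libraries. Its leading region, chr4:63993043-63993156 (−), held 35.2 and 24.9 reads, 76.6% of them let-7. Over the gene, let-7 had 32.5 and 37.6 reads, miR-27 had 15.2 and 12.4, and miR-1/miR-206 had 13.9 and 11.4.

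The small leucine-rich proteoglycans biglycan (Bgn) and decorin (Dcn) bind collagen fibrils and TGF-β, and they were led by different families. Bgn had 232.8 and 184.8 reads. Its leading region, chrX:73490777-73490947 (+), held 100.1 and 75.1 reads, of which 45.5% were miR-15/16. Over the gene, miR-15/16 had 45.5 and 39.9 reads, miR-214-3p had 30.2 and 33.7, and miR-1/miR-206 had 25.8 and 21.5. miR-27 had 22.0 and 7.13 reads (scaled ratio 0.291, interval 0.103 to 0.691). Dcn had 135.5 and 102.5 reads, and its leading region, chr10:97513607-97513740 (+), held 59.3 and 45.6, of which 52.7% were miR-125 and 35.2% let-7. Over the gene, miR-125 had 50.05 and 31.5 reads (0.564, interval 0.343 to 0.887), while let-7 had 30.5 and 30.3. miR-1/miR-206 was scarce at Dcn, with at most 6.47 reads in a library.

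Fbn1 codes for fibrillin-1, the main protein of microfibrils, which also tether latent TGF-β. It had 211.8 and 161.3 reads. Its leading region, chr2:125301572-125301698 (−), held 121.3 and 104.9 reads, 87.6% of them let-7. Over the gene, let-7 had 96.7 and 101.4 reads (scaled ratio 0.9403), and the interval of this ratio (0.700 to 1.25) did not overlap that of let-7 at Thbs1 (0.511 to 0.659). A region within the gene, chr2:125383607-125383693 (−), was almost entirely miR-27 (96.5%), with 39.3 and 34.6 reads. miR-1/miR-206 had 18.01 and 4.09 reads, a scaled ratio of 0.203 (0.049 to 0.605). Of the control reads, 11.19 lay in a region without a mimic peak (chr2:125300708-125300779). The other region led by this family had 4.875 and 4.09 of its reads (0.751, interval 0.142 to 3.33).

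At Lox the leading region, chr18:52518594-52518685 (−), held 18.2 and 13.3 reads, of which 91.5% were miR-30. Over the gene, miR-30 had 16.9 and 13.4 reads, a scaled ratio of 0.710 (0.306 to 1.499). By the sum over both libraries miR-27 was second, with 3.75 and 12.3 reads, under the minimum of 20 reads over both libraries. miR-1/miR-206 was nearly absent at Lox, with 1.33 and 0.67 reads. The reads of Lox over all miRNAs fell in 12 regions, 5 of them in both libraries.

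Across gene and family pairs most ratios were below 1. Of 46 pairs with at least 20 reads over both libraries, 38 had a scaled ratio below 1, against 52.2% of all 2231 such pairs. The median was 0.749, against 0.980. At least 1.5-fold lower were 16 pairs, and 1 was at least 1.5-fold higher, while 17.7% and 15.6% of all pairs were lower and higher by that much. Those not yet named were Bgn let-7, Postn miR-23, miR-27 and miR-29, Sparc miR-23, Thbs1 miR-133 and Tnc miR-29. Their scaled ratios ran from 0.313 to 0.602, on 20.3 to 44.0 reads over both libraries, and all of these intervals but that of Thbs1 miR-133 (0.085 to 0.865) held 1.

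The mimic was of miR-1, so the miR-1/miR-206 reads were also summed over the 9 genes. They were 1659.4 in the MOV control library and 1505.6 in the MOV mimic library, a scaled ratio of 0.813 (0.759 to 0.873). Over the whole libraries the ratio lay on the other side of 1, at 1.06 (1.04 to 1.07). The 2 miRNAs differed: miR-1a-3p had 378.2 and 428.8 reads, a scaled ratio of 1.02 (0.884 to 1.17), and miR-206-3p had 1281.2 and 1076.7, a scaled ratio of 0.754 (0.694 to 0.818). Their whole-library ratios were 1.17 (1.16 to 1.19) and 0.849 (0.829 to 0.868). Without Fn1 the family's ratio was 0.904 (0.781 to 1.05). Of 7 genes with at least 20 miR-1/miR-206 reads, Sparc was at least 1.5-fold higher and Fbn1 at least 1.5-fold lower, against 17.1% and 13% of 462 genes. For let-7, 0 of 8 genes were higher and 3 were lower (Thbs1, Postn and Bgn), against 8.56% and 19.1% of 257 genes. The interval of Bgn (0.220 to 1.43) held 1. The median let-7 ratio was 0.915 at the 8 genes and 0.904 over the 257 genes, so it was not lower at the 8 genes.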

How the data were processed

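Chimeric Ago2 eCLIP of mouse plantaris muscle was analysed in 2 libraries (MOV control and MOV mimic, 1 each). The authors deposited 1 peak list per library, and column 5, which carries no header, was taken as estimated counts of chimeric reads per miRNA and peak, not scaled and with many fractional values. All read counts and intervals rest on that reading. The submitters' processing notes name UMI-tools 1.1.1, cutadapt 3.2, STAR 2.7.7a, Bowtie 1.2.3 and HOMER 4.11 and the build mm10. The study's methods name mm9, removal of repetitive elements and PCR duplicates, and CLIPper peaks normalized against input. How fractions arose is not given in the sources used here. Of the lines at the 9 genes, 51.2% (control) and 54.1% (mimic) held under 1 read, and lines of at least 3 reads held 84.9% and 84.0% of their reads.

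Lines were assigned to RefSeq spans (GRCm38.p6) by an overlap of at least 1 nt on the strand. Strand came from the RefSeq promoter table, or for Thbs1, Fn1, Lox and Dcn from GENCODE vM1 by gene name. Regions joined overlapping peaks of both libraries. Ratios were divided by the ratio of library totals (1.115). Poisson, Clopper-Pearson and conditional binomial intervals (95%) used counts rounded to whole reads. A 1.5-fold difference was counted only with at least 20 reads over both libraries. Scripts (Python 3.11.15, pandas 2.3.3, scipy 1.17.1) were tested on simulated data. Seed families use RefSeq mature sequences or, for names without one, the family of the name; 98.7% of reads at the 9 genes had a known seed.

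The genes, lists and tests were chosen with earlier results of these data known. Named were all 9 genes, the site and the 2 families with most reads and miR-1/miR-206 at each, the 5 other matrix genes with most reads, and all pairs past the fold. Further regions and miRNAs were chosen after their values were seen, as was the search for seed matches. Alternatives were no scaling, totals without mitochondrial and rRNA reads, line minimums of 1 and 3 reads, a 2-fold limit, other overlaps, and leaving out the leading region or a gene.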

Additional observations from a re-analysis of the deposited data

How the results depend on the processing

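No paired analysis was possible because MOV control and MOV mimic had 1 library apiece, and for the same reason no replicate could be left out. The pooled scaled ratio of the 9 genes stayed below 1 under every alternative run. It was 0.838 without scaling, 0.791 with the median gene ratio set to 1 (chosen after seeing the data, as were the settings without a named gene), and 0.800 without each gene's leading region. Without scaling, every log2 ratio shifts by 0.16. Without those regions 1806.1 and 1612.5 reads remained. With lines of at least 1 read 2 genes were at least 1.5-fold lower, and with lines of at least 3 reads 3 were. Pairs at least 1.5-fold higher numbered 2 with lines of at least 3 reads. At a 2-fold limit 6 pairs were lower and 0 higher, with no test. The miR-1/miR-206 ratio was 0.907 without scaling, 0.754 for miR-206-3p alone and 0.904 without Fn1. For miR-1a-3p alone the point value, 1.02, lay on the other side of 1, but its interval given above held 1. The miR-1/miR-206 share (control, then mimic) was 38.7% and 42.1% with lines of at least 1 read, 42.6% and 46.6% with lines of at least 3, 22.6% and 25.6% without the leading regions, and 13.3% and 16.2% without Fn1. It was 40.2% in the control library without Thbs1, and 6.09% and 6.38% when lines were counted. The let-7 share was 10.5% and 10.9% without the leading regions, 33.7% and 30.0% without Fn1, 9.91% and 10.6% without Thbs1, and 15.1% in the control library when lines were counted. With a reciprocal overlap of 50%, 64.7% of mimic sites were shared. Of 80 values for the pooled ratios, shares and counts, 47 stayed, 32 moved and 1 reversed. A count stayed if it was within 1.5-fold. The reversed value was that of miR-1a-3p alone, by its point value. Of 290 values for single genes and pairs, 280 stayed within the interval of the reported value, 10 moved beyond it and 0 reversed. Many of those pairs had few reads and wide intervals, which are easily stayed within. Thbs1 was 0.879 without its leading region, and Lox and Dcn were 0.319 and 0.485 with lines of at least 3 reads. Genes with few reads, such as Lox, allow only wide intervals.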
